A study of Mus musculus with 4 samples.

Results

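The BCL2 family decides whether the outer mitochondrial membrane is permeabilised, and 10 of its genes are described here: the guardians Bcl2, Bcl2l1 and Mcl1, the effectors Bax and Bak1, and the BH3-only genes Bbc3, Pmaip1, Bcl2l11, Bid and Bad. They were chosen by name as core pro-survival and pro-apoptotic genes, by a rule that used no measured value but was written with earlier results of these data known, and each matched 1 gene of the 50559 in the count table. The libraries came from E14 cells, a mouse embryonic stem cell (ESC) line, grown on gelatin with leukemia inhibitory factor and transfected with 150 nM of a non-targeting siRNA (siNT) or of an siRNA against Cnot1 (siCnot1). RNA was taken 48 h later from 2 biological replicates of each group, so 4 libraries were compared. The study's methods describe its ESCs as carrying a tdTomato reporter gene under the MERVL promoter, which both groups would then share, and the labels of these libraries name only the E14 line. CNOT1 holds together the CCR4-NOT complex, a deadenylase that shortens poly(A) tails and so starts mRNA decay, and the comparison asked how mRNA levels change when CNOT1 is depleted. An siRNA depletes its target in part, and which of the Cnot1 siRNAs of the study was used is not given in the labels.

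Guardian proteins bind and restrain the other members, effectors form the pores through which cytochrome c leaves the mitochondrion, and BH3-only proteins sense stress and either occupy the guardians or switch on the effectors. Mouse ESCs are known to be primed for apoptosis, and several of these mRNAs, Mcl1 among them, are known to be short-lived. CCR4-NOT can be brought to an mRNA by proteins bound to AU-rich elements, by Pumilio proteins and by the microRNA machinery, so the 3′ UTR is where such sites are usually sought.

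Levels are counts scaled to library size after normalization (CPM), which follow 1 gene across libraries. They are relative to the other poly(A)+ RNA of a library, so a change common to all mRNAs would not show. Whether poly(A) tail length altered the recovery of any mRNA was not tested. Levels of different genes are set against each other only per kilobase of the exon length listed with the counts. A change was called when the adjusted p of edgeR's quasi-likelihood test (Benjamini-Hochberg over all 18144 tested genes) was under 0.05. Counts on genes totalled 32135824 to 32557440 per library, so a floor of 3 counts lay at 0.0921 to 0.0934 CPM, for counting error only. Cnot1 (GRCm39 chr8:96445559-96534741) stood at 913 and 986 CPM in siNT and at 185 and 192 CPM in siCnot1. Its log2 fold change was -2.33 (SE 0.0587, adjusted p = 2.37e-18). The ESC markers matched the label, with summed levels of 6569 to 6790 CPM in siNT and 5532 to 5873 CPM in siCnot1, and 6 of 8 were called lower. Beside this and the marker counts that follow, 14.7% of all tested genes were called lower and 15.0% higher. Of the markers of other cells, 1 of 5 primitive endoderm genes was called higher (summed level 8.49 to 10.7 CPM in siNT, 13.7 to 14.6 CPM in siCnot1). Among fibroblast genes 2 of the 4 tested were called higher (17.0 to 20.3 CPM, then 25.1 to 29.2 CPM), with Col3a1 at 0 in every library, and of the 3 tested trophectoderm genes 1 was called lower (at least 8.16 CPM in siNT and at most 5.22 CPM in siCnot1). The study reports that silencing Cnot1 raised the share of ESCs expressing the MERVL-driven tdTomato reporter, which marks a totipotent-like state, and the transcripts of that state. Genes of that state were not among the markers checked, so the share of such cells in these libraries was not measured here. The part of any of these shifts in the values that follow was not tested, and in bulk RNA fewer cells of a type and less RNA per cell cannot be told apart.

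Some sequences of the members are given first because they are what CCR4-NOT adaptors are known to read. In 3′ UTRs of GENCODE M21 (build GRCm38, 1 coding transcript per gene, transcript strand only), 4 motifs were searched: the AU-rich heptamer TATTTAT, the Pumilio motif TGTANATA, and the seed matches AGCACTT of the ESC microRNA miR-294 and GCACTTT of miR-17, which share 6 letters and can overlap. The microRNAs, from the RefSeq table, are written 5′ to 3′ with the seed (bases 2 to 8) in capitals. miR-294, miR-291a and miR-295 share 1 seed, and that of miR-17 is the same run moved by 1 base. Levels of microRNAs were not measured in these libraries.
mmu-miR-294-3p: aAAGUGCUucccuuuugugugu
mmu-miR-291a-3p: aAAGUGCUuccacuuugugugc
mmu-miR-295-3p: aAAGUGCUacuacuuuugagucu
mmu-miR-17-5p: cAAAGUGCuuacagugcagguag

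Among the guardians, Mcl1 had 3 AU-rich heptamers in a 3′ UTR of 2353 bases, and 46.2% of all UTRs of like length (0.8 to 1.25 times) had at least 1. Outside the guardians, Pmaip1 had more, with 4 in 2187 bases, and 43.9% of UTRs of like length had at least 1. The sites of Pmaip1 are not printed. Those of Mcl1 are shown with the motif in capitals, because Mcl1 is the guardian mRNA with the highest level here.
Mcl1, GRCm38 chr3:95660885-95660907, + strand: aacatgtgTATTTATgaaggtgg
Mcl1, GRCm38 chr3:95662581-95662603, + strand: tacctgtgTATTTATccttgatc
Mcl1, GRCm38 chr3:95662606-95662628, + strand: agtttgctTATTTATgtttaact

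Bcl2l11, which encodes BIM, had 3 miR-294 seed matches and 2 for miR-17 in 4218 bases. Of UTRs of like length 40.1% had a miR-294 match and 31.5% a miR-17 match. Its miR-294 matches are printed because Bcl2l11 had more of them than any other member, and the miR-17 match of Bid follows because it was the only one of the 4 motifs in that gene, the member with the smallest adjusted p.
Bcl2l11, GRCm38 chr2:128159572-128159594, + strand: ccgagtaaAGCACTTgtcttcca
Bcl2l11, GRCm38 chr2:128159769-128159791, + strand: ggtggaggAGCACTTtctaacct
Bcl2l11, GRCm38 chr2:128160443-128160465, + strand: ccgactggAGCACTTtactgtct
Bid, GRCm38 chr6:120892901-120892923, - strand: gagtgcatGCACTTTtagaatat

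The members differed widely in these letters. The AU-rich heptamer was present in 5 of the 10 (Bcl2, Bcl2l1, Mcl1, Pmaip1 and Bcl2l11) and in 26.5% of all 20049 UTRs, and the Pumilio motif in the same 5 and Bbc3, against 22.5% of all UTRs. The miR-294 match was present in Bcl2, Mcl1 and Bcl2l11 (13.7% of all UTRs), and the miR-17 match in these and Bid (11.2%). The UTRs with most matches were long, at 5086 bases in Bcl2 and 4218 in Bcl2l11, whereas the median of all UTRs was 861 bases. The shares of all UTRs are thus not matched for length. Of UTRs of like length, 67.5% had an AU-rich heptamer for Bcl2, 62.3% for Bcl2l11 and 34.4% for Bcl2l1. For the Pumilio motif these shares were 62.7%, 55% and 28.5%. Bax (165 bases), Bak1 (1121 bases) and Bad (375 bases) had none of the 4 motifs. A match is a run of letters and not a shown site, and no match says only that these letters are not in this window.

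After Cnot1 depletion most BCL2 family mRNAs moved little relative to the rest of the library. Bid and Pmaip1, both BH3-only genes, fell to 0.742 and 0.803 times their siNT levels, the effector Bax rose slightly, and the other 7 members, all 3 guardians among them, did not pass the test. Calls were thus made for 3 of the 10 members, against 29.7% of all tested genes. In each direction, 1 of 10 was higher against 15.0% of tested genes and 2 of 10 were lower against 14.7%, so the share of members called was near that of the whole transcriptome. This background depends on the scaling, since 2719 genes were called higher and 2668 lower after TMM scaling but 3999 higher and 1563 lower after scaling by library totals. The groups did not overlap in 8 of the 10, against 63.9% of tested genes. DESeq2 and limma-voom also called 1 member higher and 2 lower. The median log2 fold change of the 10 was -0.059, beside 0.0084 over all tested genes. At the threshold of the study's methods (p at most 0.05 before adjustment, with a log2 fold change of 1 or more in size) edgeR called 0 members, against 7.98% of tested genes, and 4 members had an unadjusted p under 0.05.

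**Figure D1:**
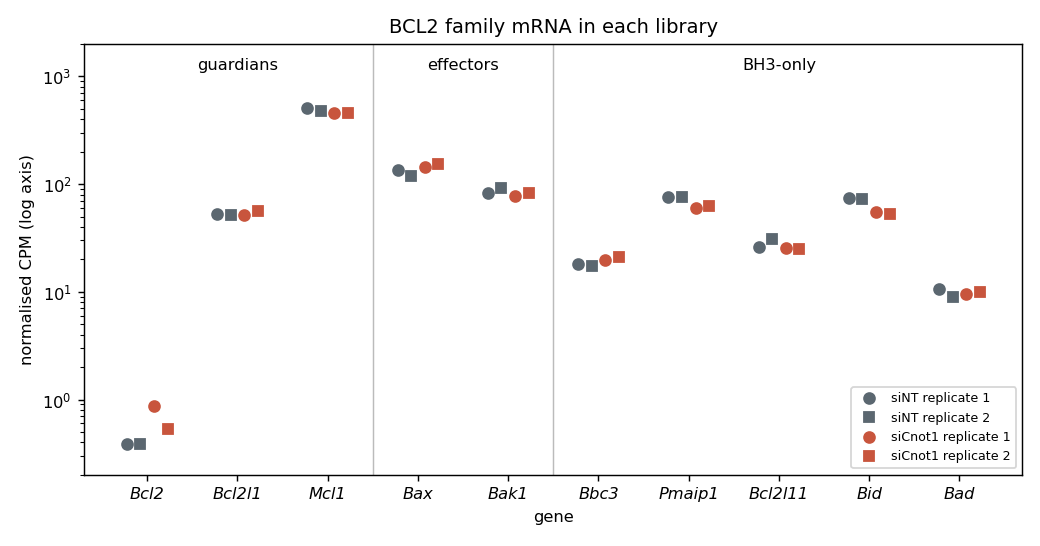
Normalised CPM (log axis) of the 10 members in each of the 4 libraries, grouped by role, with grey points for siNT, red points for siCnot1, circles for replicate 1 and squares for replicate 2. Levels ran from 0.383 CPM for Bcl2 to 511 CPM for Mcl1, and for Bid and Pmaip1 both siCnot1 points lie under both siNT points.

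Guardians were led by Mcl1 (GRCm39 chr3:95564017-95583553, + strand), which encodes a short-lived protein that holds BAK and BIM. It stood at 511 and 481 CPM in siNT and at 459 and 456 CPM in siCnot1. Both siCnot1 libraries were below both siNT libraries. The log2 fold change was -0.12 (SE 0.0544, 95% interval -0.23 to -0.0048), and the adjusted p of 0.110 did not pass.

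Bcl2l1 (GRCm39 chr2:152600652-152675723, - strand), the gene of BCL-XL, was at 53.0 and 51.8 CPM in siNT and at 51.8 and 56.8 CPM in siCnot1. The groups overlapped. Its log2 fold change of 0.050 (SE 0.0816, 95% interval -0.12 to 0.22) had an adjusted p of 0.704, so the interval left room for small changes either way.

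Bcl2 (GRCm39 chr1:106465906-106642020, - strand), the founding guardian, was close to the floor, with 12 and 12 counts in siNT and 29 and 18 in siCnot1. In CPM these were 0.386 and 0.383, then 0.866 and 0.538. Both siCnot1 libraries were higher, but the log2 fold change of 0.86 had an SE of 0.587 and a 95% interval of -0.35 to 2.08 (adjusted p = 0.295), so a difference was not detectable at this depth. With 0 of 3 guardians called by edgeR, DESeq2 or limma-voom, 1 (Mcl1) had an unadjusted p under 0.05 in edgeR. Of all tested genes, edgeR called 29.7%.

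The effector Bax (GRCm39 chr7:45111119-45116344, - strand), a cytosolic protein that moves to mitochondria on activation and a known p53 target, was at 135 and 118 CPM in siNT and at 143 and 152 CPM in siCnot1. Both siCnot1 libraries were higher, though siNT replicate 1 lay close to siCnot1 replicate 1. Bax rose 1.17-fold, with a log2 fold change of 0.23 (SE 0.0675, 95% interval 0.086 to 0.37, adjusted p = 0.0134). The call rested on all 4 libraries. The log2 fold change was 0.32 without siNT replicate 1 (adjusted p = 0.0560), 0.13 without siNT replicate 2 (adjusted p = 0.275), 0.27 without siCnot1 replicate 1 (adjusted p = 0.0809) and 0.17 without siCnot1 replicate 2 (adjusted p = 0.253). With no filter on low counts the adjusted p was 0.162, and with offsets for trends in gene length and expression Bax had a log2 fold change of 0.43 (adjusted p = 5.33e-07).

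Bak1 (GRCm39 chr17:27238786-27247601, - strand), the effector that sits in the mitochondrial membrane, was at 83.5 and 91.1 CPM in siNT and at 78.2 and 83.1 CPM in siCnot1. The siCnot1 libraries were lower by a margin smaller than the spread within either group. The log2 fold change of -0.12 (SE 0.0699, 95% interval -0.26 to 0.029) did not pass (adjusted p = 0.235).

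Of the 5 BH3-only genes, 2 fell, 0 rose and 3 did not pass, against 14.7% of all tested genes called lower and 15.0% higher. DESeq2 and limma-voom gave the same counts, and 0 had an unadjusted p under 0.05 in the higher direction. Bid (GRCm39 chr6:120870080-120894074, - strand), which links death receptors to mitochondria once caspase-8 has cleaved it, had the smallest adjusted p of the 10. It was at 74.1 and 72.4 CPM in siNT and at 55.6 and 53.1 CPM in siCnot1. The gap between the groups was larger than the spread within either. Bid fell to 0.742 times its siNT level, with a log2 fold change of -0.43 (SE 0.0742, 95% interval -0.58 to -0.28, adjusted p = 0.000104). It passed in all 13 alternative settings, with log2 fold changes from -0.47 to -0.32.

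Pmaip1 (GRCm39 chr18:66591675-66598629, + strand) encodes NOXA, which binds MCL1. It was at 75.9 and 75.4 CPM in siNT and at 59.5 and 62.0 CPM in siCnot1. Both siCnot1 libraries lay well under both siNT libraries. Pmaip1 fell to 0.803 times its siNT level, with a log2 fold change of -0.32 (SE 0.0718, 95% interval -0.46 to -0.17, adjusted p = 0.00167). The direction held when any 1 library was left out, but Pmaip1 no longer passed without siNT replicate 1 (adjusted p = 0.0650), siNT replicate 2 (0.0511) or siCnot1 replicate 1 (0.0676).

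Bbc3 (GRCm39 chr7:16042307-16052259, + strand) encodes PUMA, like BAX and NOXA a known product of p53 target genes. It was at 18.1 and 17.5 CPM in siNT and at 19.9 and 20.9 CPM in siCnot1. The siCnot1 libraries were both higher, but the log2 fold change of 0.20 (SE 0.109, 95% interval -0.027 to 0.42) had an adjusted p of 0.183. Scaled by library totals alone, Bbc3 had a log2 fold change of 0.31 and passed (adjusted p = 0.0369). Bax, Pmaip1 and Bbc3, which need not be all the p53 targets among the members, thus gave 1 higher, 1 lower and 1 not called. Of all tested genes 15.0% were called higher and 14.7% lower.

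Bcl2l11 (GRCm39 chr2:127967958-128004467, + strand), the gene of BIM and the carrier of the seed matches shown above, was at 26.1 and 30.8 CPM in siNT and at 25.3 and 24.8 CPM in siCnot1. The siCnot1 libraries were lower, with siNT replicate 1 close to them. The log2 fold change of -0.18 (SE 0.104, 95% interval -0.40 to 0.033) did not pass (adjusted p = 0.203), and with the length and expression offsets it was -0.30 and passed (adjusted p = 0.0269).

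Bad (GRCm39 chr19:6919229-6929273, + strand), whose protein is held inactive by growth factor signalling through phosphorylation, was at 10.6 and 8.97 CPM in siNT and at 9.61 and 9.89 CPM in siCnot1. The siCnot1 libraries lay between the siNT libraries. The log2 fold change was -0.0026 (SE 0.148, 95% interval -0.31 to 0.30, adjusted p = 0.993). Of Bad's exon bases 34% are shared with Gpr137 on the opposite strand, and the strand setting of the counting is not given, so the counts of Bad are uncertain.

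**Figure D2:**
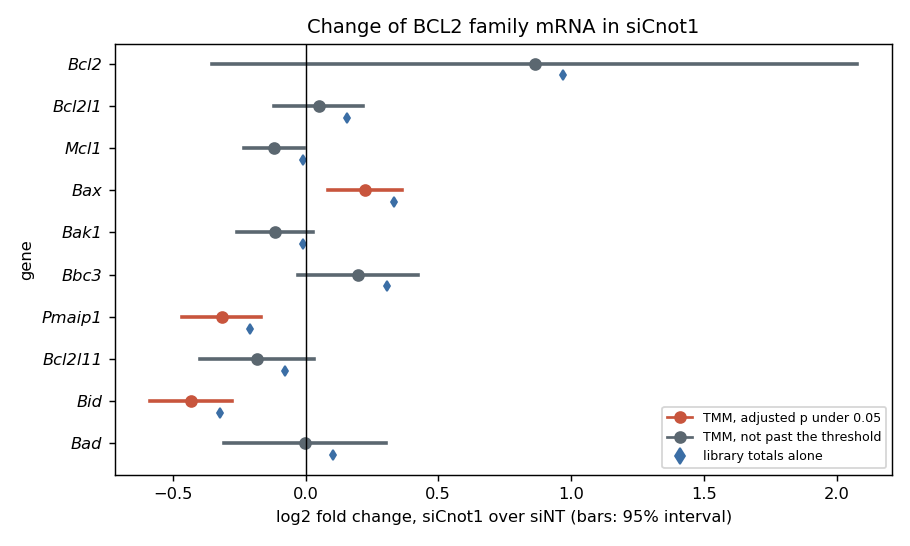
Log2 fold change of siCnot1 over siNT for each member, with its 95% interval from edgeR after TMM scaling (red where the adjusted p was under 0.05, grey otherwise) and, as blue diamonds, the value after scaling by library totals alone. Bid (-0.43), Pmaip1 (-0.32) and Bax (0.23) are the members called, and all 10 diamonds lie to the right of the TMM values.

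Scaling by library totals moved the median log2 fold change of all tested genes from 0.0084 to 0.12, and the members moved with it. On that scale Bid was at -0.32 (adjusted p = 0.00184), Pmaip1 at -0.21 (adjusted p = 0.0286) and Bax at 0.33 (adjusted p = 0.000492), so these 3 kept their direction and their call. Mcl1 was then at -0.010 and Bak1 at -0.0082, and Bad turned from -0.0026 to 0.10.

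**Figure D3:**
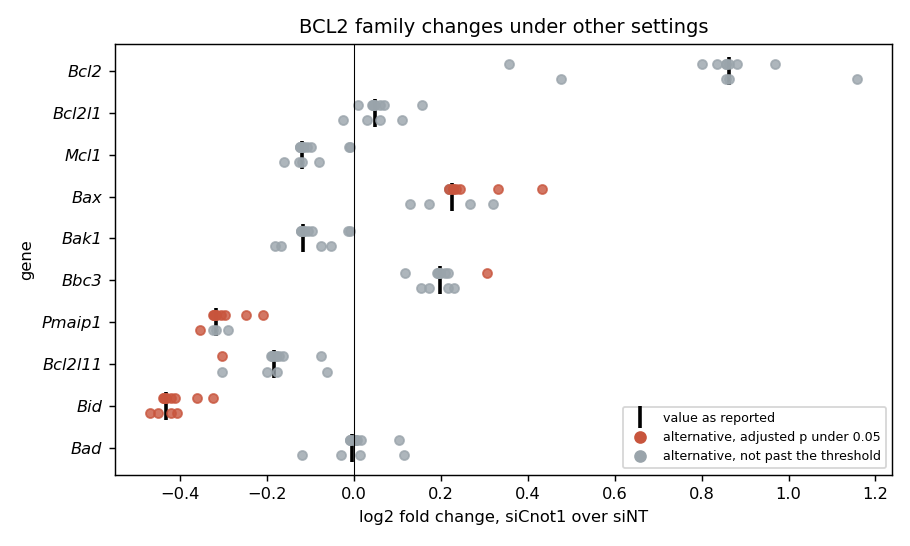
Log2 fold change of each member as reported (black bar) and under each alternative setting, with settings that leave out 1 library drawn below the line and all others above it, red where the adjusted p was under 0.05 and grey otherwise. Bid passed in 13 of 13 settings, Pmaip1 in 10 of 13 and Bax in 8 of 13.

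Per length, Bax mRNA was at the top of the family. Its level was 143 and 125 CPM per kilobase in siNT and 152 and 162 in siCnot1. Mcl1 came next, at 58.5 and 55.2 in siNT and 52.6 and 52.2 in siCnot1, and then Bak1 at 41.3 and 45.0, then 38.6 and 41.1. In siNT, Bid (30.9 and 30.2 CPM per kilobase) stood above Pmaip1 (28.6 and 28.4), and in siCnot1 these neighbours overlapped (Bid 23.1 and 22.1, Pmaip1 22.4 and 23.4). The lower part of the order was Bcl2l1, Bad, Bbc3, Bcl2l11 and Bcl2 in both groups, from 7.14 to 7.82 CPM per kilobase for Bcl2l1 down to 0.052 to 0.118 for Bcl2, and no other neighbours overlapped in either group.

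The order depended on the length used. The table lists 8.72 kilobases of exon for Mcl1, counting every annotated form, whereas 1 coding transcript of GENCODE has 3.42 kilobases. With the latter, Mcl1 (141 to 149 CPM per kilobase in siNT) overlapped Bax (136 to 156). In siCnot1 Mcl1 (133 to 134) was again below Bax (165 to 176). With GENCODE lengths Bbc3 stood above Bad in siNT (9.64 to 9.96 against 6.17 to 7.28) and in siCnot1 (11.0 to 11.5 against 6.62 to 6.81). Bcl2l1 (21.4 to 23.5) then overlapped Pmaip1 (21.8 to 22.7) in siCnot1.

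Effector mRNA took a larger share of the family's summed per-length level in siCnot1, and the shares of guardians and BH3-only genes were smaller. Effectors held 57.0% and 55.9% in siNT and 61.5% and 62.9% in siCnot1. The groups did not overlap, with means of 56.5% ± 0.762 and 62.2% ± 0.950 (SD, n = 2 each). BH3-only genes held 22.7% and 23.6% in siNT and 19.2% and 18.5% in siCnot1, means of 23.1% ± 0.653 and 18.8% ± 0.469.

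Guardians held 20.3% and 20.5% in siNT and 19.3% and 18.6% in siCnot1, means of 20.4% ± 0.109 and 19.0% ± 0.481. The gap between groups was larger than the spread within them for each role, but 2 libraries a group give too few arrangements for an exact test to reach 0.05, so none was made. Within the roles these differences lay mostly in Bax for effectors, in Mcl1 for guardians, and in Bid and Pmaip1 together for BH3-only genes. Bax held 44.3% and 41.1% in siNT and 49.1% and 50.2% in siCnot1, whereas the other effector, Bak1, held 12.7% and 14.8%, then 12.5% and 12.7%. Mcl1 went from 18.1% in both siNT libraries to 17.0% and 16.2%, and the share of Bcl2l1 overlapped between groups (2.25% and 2.34%, then 2.30% and 2.42%).

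Among BH3-only genes Bid went from 9.52% and 9.90% to 7.46% and 6.85% and Pmaip1 from 8.82% and 9.32% to 7.23% and 7.24%, while Bbc3 was higher, at 1.39% and 1.43%, then 1.60% and 1.62%. The shares sum to a fixed total within a library and so cannot move independently. With GENCODE lengths, chosen after these values were seen, guardians held 38.6% in siNT and 36.3% in siCnot1, effectors 42.1% and 47.4%, and BH3-only genes 19.3% and 16.3%, so the levels of the shares depended on the length and the directions did not.

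**Figure D4:**
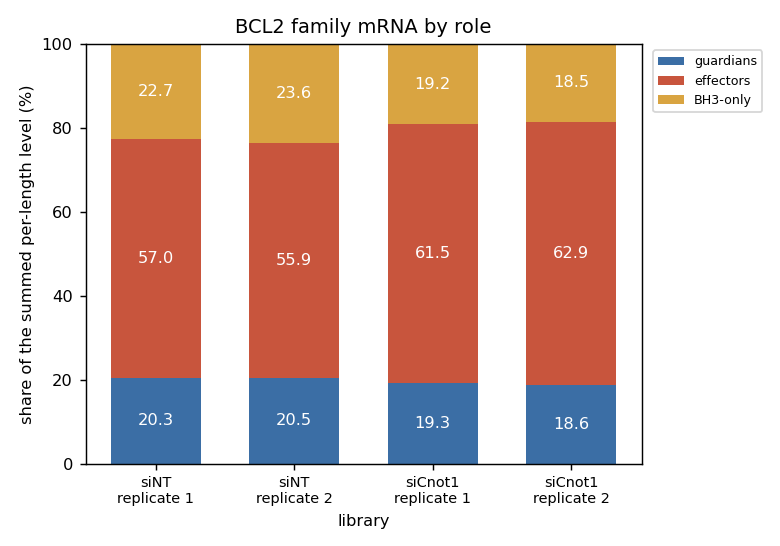
Share (%) of the summed per-length level of the 10 members held by guardians, effectors and BH3-only genes in each of the 4 libraries. Effectors are at 55.9% to 57.0% in siNT and at 61.5% to 62.9% in siCnot1.

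Around the 10 members, 54 further genes of the pathway were listed by role, and 50 had enough counts for the test. Of these 7 were called higher and 9 lower, against 15.0% and 14.7% of all tested genes, so the share of the 50 that was called lay close to the 29.7% of all tested genes. The median change of the 50 was -0.067 on the log2 scale. The size of the calls ranged more widely than among the members. The 16 called genes kept their direction in every alternative setting. Scaled by library totals, Cycs, Xiap, Usp9x, Huwe1 and Btrc no longer passed. Xiap also did not pass with upper-quartile scaling (adjusted p = 0.0557), the replicate block (0.0603) or no filter (0.0847).

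Among 9 tested other BCL2 family genes, 1 was called, against 29.7% of all tested genes. Bmf, a BH3-only gene, was at 11.8 and 9.70 CPM in siNT and at 15.9 and 14.3 CPM in siCnot1, both higher. Its log2 fold change was 0.49 (SE 0.136, adjusted p = 0.00820). Bmf did not pass with the length and expression offsets (0.33, adjusted p = 0.0702) or with no filter (0.48, adjusted p = 0.0931). When any 1 library was left out Bmf did not pass, at log2 fold changes of 0.35 to 0.63. Bcl2a1a, Bcl2a1b, Bcl2a1d and Bcl2l15 had too few counts for the test, and the Bcl2a1 genes are near-identical copies whose reads could be split.

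Of 13 genes of the apoptosome and the caspases, 1 was higher and 2 were lower, against 15.0% and 14.7% of all tested genes. Apaf1, which forms the wheel that activates caspase-9, was at 79.6 and 84.0 CPM in siNT and at 106 and 92.4 CPM in siCnot1. Its log2 fold change was 0.28 (SE 0.0722, adjusted p = 0.00463). Cycs, which encodes cytochrome c, changed by -0.23 (SE 0.0613, adjusted p = 0.00615). With no filter neither gene passed (adjusted p = 0.104 for Apaf1 and 0.0602 for Cycs). Cycs also did not pass with the length and expression offsets (adjusted p = 0.107). Of the 4 fits that left out a library, Apaf1 passed only in that without siCnot1 replicate 2 and Cycs only in that without siNT replicate 2. In the others Apaf1 was at 0.17 to 0.32 and Cycs at -0.24 to -0.17. Among 5 caspase inhibitors, Xiap was lower, at -0.18 (SE 0.0631, adjusted p = 0.0324), and it passed in 0 of those 4 fits (log2 fold changes of -0.21 to -0.16).

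Death receptor genes held the largest change among the further genes tested. Of the 8 tested genes of this list, 2 were called higher and 1 lower, against 15.0% and 14.7% of all tested genes. Fas, a death receptor whose signal reaches mitochondria through BID, was at 0.514 and 0.383 CPM in siNT and at 1.88 and 1.37 CPM in siCnot1. Levels were low in both groups, and both siCnot1 libraries were higher. The log2 fold change was 1.85 (SE 0.453, 95% interval 0.91 to 2.79, adjusted p = 0.00316). Cflar, which encodes the caspase-8 inhibitor FLIP, was at 6.81 and 3.92 CPM in siNT and at 9.11 and 9.68 CPM in siCnot1, with a log2 fold change of 0.81 (SE 0.200, adjusted p = 0.00351). Ripk1, a kinase of the death receptor complexes, was lower at -0.37 (SE 0.0959, adjusted p = 0.00535). These were the 3 calls among 8 tested genes, and each passed in 1 of the 4 fits that left out a library (Fas and Ripk1 without siCnot1 replicate 2, Cflar without siNT replicate 1). Over those fits the log2 fold change was 1.60 to 2.07 for Fas, 0.46 to 1.25 for Cflar and -0.44 to -0.29 for Ripk1.

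Mitochondrial partners and genes for the turnover of BCL2 proteins held 7 calls among 8 tested genes, 2 higher and 5 lower, against 15.0% and 14.7% of all tested genes, and 3 of the lower calls (Usp9x, Huwe1 and Btrc) were lost in several alternatives. Vdac1, the main voltage-dependent anion channel, was at 745 and 721 CPM in siNT and at 498 and 516 CPM in siCnot1, with a log2 fold change of -0.53 (SE 0.0535, adjusted p = 9.76e-08). Vdac3 was lower too, at -0.36 (SE 0.0625, adjusted p = 0.000120), and Vdac2, whose protein is known to hold BAK in mitochondria, had a value of -0.13 that did not pass (SE 0.0552, adjusted p = 0.0850).

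Among ubiquitin ligases, Fbxw7, which marks MCL1 for degradation, was at 69.2 and 78.3 CPM in siNT and at 106 and 102 CPM in siCnot1. It rose by 0.49 on the log2 scale (SE 0.0705, adjusted p = 1.10e-05). Marchf5, a ligase of the outer mitochondrial membrane, changed by 0.38 (SE 0.0697, adjusted p = 0.000236). The remaining 3 calls were small: Usp9x, a deubiquitinase that stabilises MCL1, was at -0.16 (adjusted p = 0.0319), and the ligase genes Huwe1, which also acts on MCL1, and Btrc were at -0.14 (adjusted p = 0.0464) and -0.22 (adjusted p = 0.0414). With upper-quartile scaling their adjusted p was 0.0586 for Usp9x, 0.0858 for Huwe1 and 0.0635 for Btrc, and with the replicate block it was 0.0586, 0.0883 and 0.0652. None of these 3 passed when any 1 library was left out, at -0.22 to -0.10 for Usp9x, -0.18 to -0.11 for Huwe1 and -0.28 to -0.17 for Btrc.

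Vdac1 and Fbxw7 passed in all 13 alternatives and Vdac3 in 12, all but that without siNT replicate 1 (-0.35, adjusted p = 0.0541). Marchf5 passed in 10 and did not pass without siNT replicate 1 (0.26, adjusted p = 0.0725), without siCnot1 replicate 2 (0.34, adjusted p = 0.0519) or with no filter (0.37, adjusted p = 0.0501).

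Beside 29.7% of all tested genes, 1 of 7 transcription factors known to act on BH3-only genes was called, Trp73, a relative of p53. It was at 7.10 and 8.90 CPM in siNT and at 19.5 and 17.9 CPM in siCnot1, a gap far wider than the spread in either group. Its log2 fold change was 1.23 (SE 0.137, adjusted p = 4.42e-07), and it passed in all 13 alternatives.

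**Figure D5:**
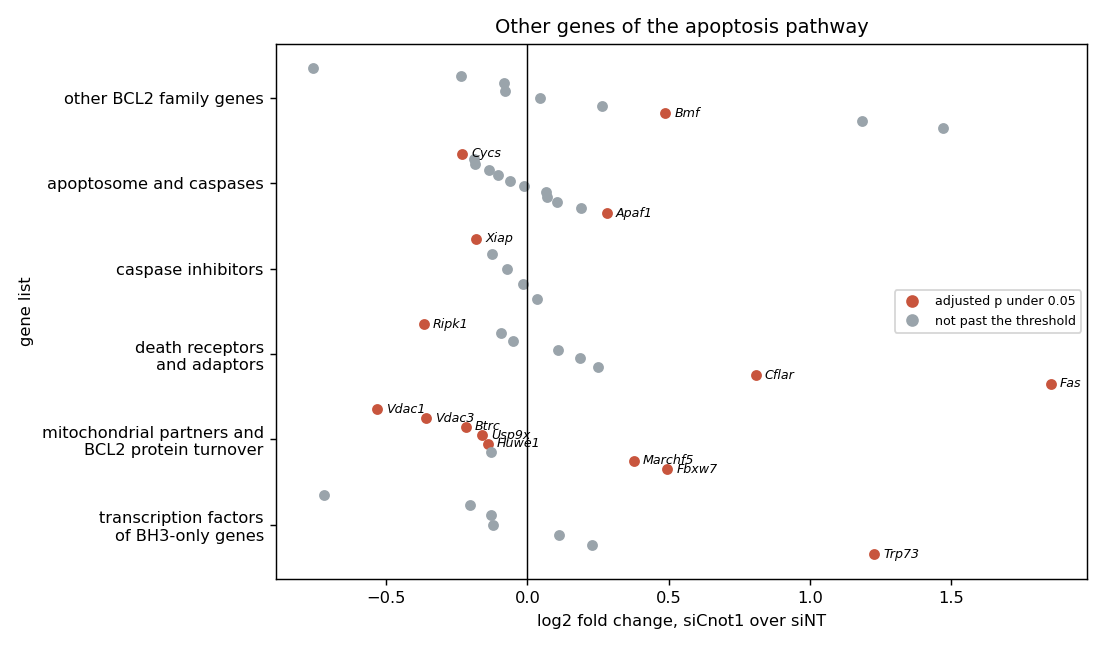
Log2 fold change of siCnot1 over siNT for the tested further genes, by list and without 1 gene not reported here, with red named points for an adjusted p under 0.05 and grey points for the others. Fas (1.85) and Trp73 (1.23) are farthest to the right among the called genes, and Vdac1 (-0.53) farthest to the left.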

How the data were processed

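Poly(A)+ RNA-seq of siNT and siCnot1 ESCs was used. The authors deposited raw counts per gene for each library, without normalization or pooling, together with gene positions and exon lengths. The submitters' processing notes list fastp 0.19.4, HISAT2 2.2.1, DESeq2 1.40.2 and mm10, whereas the positions and contig names of the table are those of GRCm39. The counting program and its strand setting are not given in the sources used here. The library protocol marks strand with dUTP.

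Counts were filtered with filterByExpr (minimum count 10), scaled by TMM and tested with the quasi-likelihood F test of edgeR 4.0.16 (R 4.3.3), modelling the siRNA alone, and p-values were adjusted over 18144 genes. The p-values rest on a variance moderated over all tested genes, and not only on the spread of the named gene between these replicates. The fits were tested on simulated counts. Levels per length are normalised CPM per kilobase of listed exon.

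The alternatives comprised upper-quartile scaling, the size factors of DESeq2, library totals, no filter, at least 1 CPM in 2 libraries, DESeq2 1.42.0, limma-voom (limma 3.58.1), a replicate block, offsets from trends in length and expression (loess span 0.3), each library left out, and the study's threshold. A fit with 1 library left in a group assumes that it varies like the others. For shares by role, counts without length and GENCODE transcript lengths were used.

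The members and lists were chosen with earlier results of these data known. Named were all 10 members, Cnot1 and, in each further list, up to 4 called genes with the smallest p and all genes under the filter. Btrc, Huwe1, Usp9x, Vdac2 and Col3a1 were named after their values were seen. The values of 1 further gene are not reported here, though it is in the counts. 3′ UTR sites have GRCm38 positions and were matched to members through gene symbols alone.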

Additional observations from a re-analysis of the deposited data

How the results depend on the processing

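Of the 10 members, Bid kept its call in 13 of 13 alternatives. The Bax value was 0.22 (adjusted p = 0.162) with no filter on low counts and ranged from 0.13 to 0.32 when 1 library was left out, without a call in any of these 4 fits, and Pmaip1 ranged from -0.35 to -0.29, with a call in 1 of 4. Bbc3 passed with library totals (0.31) and Bcl2l11 with the length and expression offsets (-0.30). Bad, near 0 throughout, turned positive with upper-quartile scaling (0.017), library totals (0.10), at least 1 CPM (0.0077), limma-voom (0.0023), the offsets (0.0065) and the replicate block (0.00088), and ranged from -0.12 to 0.12 with 1 library left out. Bcl2l1 ranged from -0.025 to 0.11. Bcl2 had too few counts for the 1 CPM filter. Members called higher numbered 2 with library totals, 0 with no filter, 0 in each fit with a library left out and 0 at the study's threshold, and those called lower 1 to 2 with a library left out and 0 at that threshold. Further pathway genes called lower numbered 5 with upper-quartile scaling, 4 with library totals, 3 with no filter, 5 with the replicate block, 1 to 4 with a library left out and 0 at the study's threshold, and those called higher 3 with no filter, 3 to 4 with a library left out and 3 at that threshold. Of all tested genes, 3999 were called higher and 1563 lower with library totals, 1303 higher and 1450 lower with no filter, 743 to 1439 higher and 871 to 1463 lower with a library left out, and 1121 higher and 326 lower at the study's threshold. Fits with a library left out had fewer samples, and the cause of the other shifts was not tested. Without division by length, guardians held 56.7% (siNT) and 56.2% (siCnot1), effectors 22.1% and 25.1% and, in siNT, BH3-only genes 21.2%. With GENCODE lengths the shares were 38.6% and 36.3%, 42.1% and 47.4%, and 19.3% and 16.3%. Same-numbered replicates did not deviate together over genes as a whole (correlation 0.011). With so few replicates this cannot show whether the numbers stand for a pairing. The replicate block changed no member's call. Depth limits Bcl2 (12 to 29 counts per library).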
